A study of Rattus norvegicus with 11 samples.

Results

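The respiratory chain of the mitochondrial inner membrane passes electrons from NADH and succinate to oxygen. Complex I (NADH dehydrogenase) and complex II (succinate dehydrogenase) feed electrons to ubiquinone, complex III (cytochrome c reductase) passes them to cytochrome c, and complex IV (cytochrome c oxidase) passes them to oxygen. Complexes I, III and IV pump protons, and complex V (ATP synthase) uses the resulting gradient to make ATP. Most subunits are encoded in the nucleus and a few in mitochondrial DNA. In the bladder wall, the detrusor smooth muscle and the urothelium both depend on this machinery, and several complex IV subunits exist as tissue-specific isoforms encoded by separate genes.

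The genes described here were chosen by symbol alone, as the nuclear genes whose names begin with Ndufa, Ndufb, Ndufc, Ndufs or Ndufv and a number, with Uqcr, with Cox4 to Cox8 or with Atp5, together with Sdha, Sdhb, Sdhc and Sdhd. The rule found 82 of the 18507 genes in the table: 37 for complex I, 4 for complex II, 8 for complex III, 16 for complex IV and 17 for complex V. Not every one encodes a subunit. RefSeq now names Atp5s and Atp5sl as Dmac2l and Dmac2, which stand outside the accepted subunit list of ATP synthase. Ndufa13, Ndufb1, Cox6b1 and the subunits encoded in mitochondrial DNA were not analysed here.

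Bladder tissues came from female Sprague-Dawley rats of about 6 months. Partial bladder outlet obstruction (PBOO) was made by tying a suture at the bladder outlet, and the rats labelled normal received an abdominal incision alone, according to the methods. RNA was sequenced from 3 PBOO and 3 normal samples at week 4, and from 2 PBOO and 3 normal samples at week 5. The labels of the normal week 5 samples also call them adult, and the weeks differ in their sample naming, so week and cohort cannot be told apart. Nothing in the labels states which animal each sample came from, and p-values measure the spread between these samples. Expression is given as FPKM, fragments normalised to exon length and to all mapped fragments, which divides by gene length, so that levels of different genes can be set side by side. Fold changes are on the scale of log2(FPKM + 0.1), tests are limma fits within a week with Benjamini-Hochberg adjustment over all genes tested, and a gene is said to have risen or fallen at an adjusted p under 0.05.

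The samples differed beyond the respiratory chain. Smooth muscle markers (8 genes) summed to between 24767 and 29124 FPKM in the normal week 5 samples, and to 1860 and 994 FPKM in the PBOO week 5 samples, where all 8 fell. Stroma markers (7 genes) summed to between 1509 and 1897 FPKM in normal week 5 and to 119 and 171 FPKM in PBOO week 5, with 6 of 7 fallen. Leukocyte markers (9 genes) summed to between 15.9 and 38.4 FPKM in normal week 5 and to 171 and 589 FPKM in PBOO week 5, and 4 of the 8 tested rose. At week 4 the smooth muscle sum was between 25492 and 27555 FPKM in normal and between 50905 and 82146 FPKM in PBOO samples, and the 10 most abundant genes took 9.35% to 9.73% of all FPKM in normal and 13.7% to 20.0% in PBOO samples. Of the 8 urothelium markers, 2 were listed at 0 in every week 4 sample. The list summed to between 4791 and 5834 FPKM in normal and between 2840 and 3534 FPKM in PBOO samples of week 4. Adipocyte markers (5 genes) summed to between 890 and 1058 FPKM and between 298 and 812 FPKM, with none of either list called. The part of these cells in the week 4 values was not tested. In normal week 4 replicate 1 the stroma markers summed to 1072 FPKM, against 3979 and 4043 FPKM in the other two normal samples. In bulk tissue, fewer cells of a type and less RNA per cell cannot be told apart.

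Respiratory chain genes were among the abundant transcripts of the bladder. In the normal week 4 samples the highest were Cox4i1, a core regulatory subunit of complex IV, at 752 ± 18.6 FPKM (SD, n = 3), and Cox6c, a small subunit of the same complex, at 672 ± 76.8 FPKM (SD, n = 3). In normal week 5 samples the highest was Atp5b, the catalytic beta subunit of ATP synthase, at 793, 692 and 734 FPKM. The median complex IV gene stood above the median gene of the other complexes measured at week 4, with 255, 264 and 277 FPKM in normal samples against 94.7 to 108 FPKM for complex I, 127 to 135 FPKM for complex II and 127 to 134 FPKM for complex III. The lowest ubiquitous subunit was Ndufs6 of complex I, with at most 2.63 FPKM in any sample. Of the 82 genes, 37 have at least 1 named pseudogene in the rat assembly GRCr8, so their reads may have been shared with near-identical copies.

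Many complex members could be followed at only 1 of the weeks. All 17 complex V rows were listed at 0 in every week 4 sample, and so were Ndufa3, Ndufc1, Cox7a1 and Cox7a2l2. At week 5 Atp5b and Atp5a1, the ATP synthase subunits that form its catalytic head, stood at 639 to 793 and 333 to 380 FPKM over the 5 samples. All 17 complex V rows carry older symbols that RefSeq has since replaced. Among the 4871 genes at 0 in all week 4 samples, 47.6% carry a symbol that is not current in GRCr8, against 4.22% of the 13233 genes seen in both weeks. The 0 values are therefore given only as listed, and complex V was compared at week 5 alone. Ndufa1, a small complex I subunit, was listed at 0 in normal week 4 replicate 1 and PBOO week 4 replicate 2, and between 40.1 and 100 FPKM in the other week 4 samples. That left 61 genes for week 4 and 81 for week 5, of which all 61 and 80 passed the filter of a mean of 0.5 FPKM. The gene that failed it was Ndufs6.

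The promoter windows of these genes were described by their base content and by short sequence strings. RefSeq (GRCr8) holds a promoter window, from 250 bases before the start to 50 after it, for 71 of the 82 genes. The Cox6a2 window lies inside the span listed for that gene (192218970 to 192221188, minus strand), downstream of its outer end. These windows had a median of 20 CpG dinucleotides and a GC content of 56.0%, against 7 and 52.3% over all 27457 windows. The windows printed are those of 4 complex IV genes named in the results and that of Sdha, shown for its repeated motif. Not every called gene is among them. Motif matches are in capitals, on either strand, and the strand printed is that of the gene.

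Cox5a (chr8:66818034-66818333, plus strand): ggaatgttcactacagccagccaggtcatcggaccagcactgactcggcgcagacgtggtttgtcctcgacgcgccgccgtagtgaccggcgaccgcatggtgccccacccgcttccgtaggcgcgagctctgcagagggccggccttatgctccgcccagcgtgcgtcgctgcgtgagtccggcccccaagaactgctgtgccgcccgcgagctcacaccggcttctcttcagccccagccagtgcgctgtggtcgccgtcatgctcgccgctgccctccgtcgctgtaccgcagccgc

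Cox6b2 (chr1:78122621-78122920, plus strand): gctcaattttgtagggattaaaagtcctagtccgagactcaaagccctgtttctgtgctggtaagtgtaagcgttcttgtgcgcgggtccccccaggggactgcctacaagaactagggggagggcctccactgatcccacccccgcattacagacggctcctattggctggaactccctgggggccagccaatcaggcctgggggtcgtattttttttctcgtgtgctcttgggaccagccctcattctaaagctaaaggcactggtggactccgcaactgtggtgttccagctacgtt

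Cox6a2 (chr1:192219667-192219966, minus strand): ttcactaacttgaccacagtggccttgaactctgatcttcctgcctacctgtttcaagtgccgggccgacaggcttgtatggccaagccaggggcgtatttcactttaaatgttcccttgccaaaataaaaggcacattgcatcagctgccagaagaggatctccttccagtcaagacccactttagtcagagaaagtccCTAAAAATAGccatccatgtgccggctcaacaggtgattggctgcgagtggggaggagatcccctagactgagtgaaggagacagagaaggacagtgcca

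Cox4i1 (chr19:65630133-65630432, plus strand): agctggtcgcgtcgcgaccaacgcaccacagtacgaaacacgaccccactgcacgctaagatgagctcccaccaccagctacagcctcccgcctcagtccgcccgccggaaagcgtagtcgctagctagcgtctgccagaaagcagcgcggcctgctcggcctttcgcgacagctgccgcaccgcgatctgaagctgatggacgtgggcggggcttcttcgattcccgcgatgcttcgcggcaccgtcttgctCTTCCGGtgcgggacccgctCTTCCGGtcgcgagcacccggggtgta

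Sdha (chr1:30764303-30764602, plus strand): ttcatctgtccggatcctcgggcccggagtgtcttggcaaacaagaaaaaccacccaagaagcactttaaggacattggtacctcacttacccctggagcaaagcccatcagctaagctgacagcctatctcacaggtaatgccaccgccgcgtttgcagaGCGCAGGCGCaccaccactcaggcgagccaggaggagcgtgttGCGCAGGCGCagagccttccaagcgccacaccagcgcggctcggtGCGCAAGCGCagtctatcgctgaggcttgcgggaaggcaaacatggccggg

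The capitals mark 3 matches in Sdha, read on the opposite strand, to GCGC and TGCGC with 1 base between them, the outer parts of the string bound by nuclear respiratory factor NRF1. They mark 2 matches in Cox4i1, also on the opposite strand, to CCGGAAG, an ETS string of the kind bound by GABP, and 1 match in Cox6a2 to CTA and TAG with 4 bases between them, a form of the motif of the muscle factor MEF2. Cox5a and Cox6b2 held none of the 6 strings searched. Over all 71 windows, the NRF1 string was in 14 (19.7%, against 4.71% of all promoters), the ETS string in 19 (26.8%, against 9.22%) and the YY1 string AAGATGGCG in 10 (14.1%, against 1.93%). The ERR string TCAAGGTCA was in 2 windows (2.82%, against 0.412%), those of Sdhd and Atp5g3, the MEF2 string in 2 (2.82%, against 3.83%), those of Cox5b and Cox6a2, and TATAAA in 7 (9.86%, against 14.3%). Most of the 71 windows held none of any 1 string. The windows of all promoters were not matched to those of the members for CpG. The NRF1, ETS and YY1 strings each hold a CG, so their shares cannot be told apart from the difference in CpG. A match is a description of the sequence and not a binding site.

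Compared with normal bladder tissues, no respiratory chain gene passed the adjusted threshold at week 4, where 0.512% of the 11320 genes tested did (58 genes, 0.336% higher and 0.177% lower). Values were shifted downward together with most of the transcriptome. The median log2 fold change was -0.29 over the 61 genes and -0.25 over all genes tested, and 54 of the 61 were lower. The 3 PBOO samples lay below the 3 normal samples without overlap in 38 genes and above them in 0, while 34.9% of all genes tested lay below and 6.63% above. At an unadjusted p under 0.05, 29 genes were lower and 0 higher, with 26.2% and 5.76% of all genes as the background. The size of the shift rests on the scaling of the samples. With each sample scaled by median ratios, the median moved to -0.05 (all genes -0.01), and 34 genes were lower and 27 higher. Of all 11313 genes tested there, 5749 were lower and 5564 higher. At an unadjusted p under 0.05, 6 members were lower and 2 higher (all genes 1018 and 1321). Scaled to the sum without the highest genes, it was -0.07 (all genes -0.03), with 36 lower and 25 higher. Under quantile normalization it was -0.14 (all genes -0.05), with 47 lower and 14 higher. There 14 lower and 2 higher had an unadjusted p under 0.05 (all genes 1311 and 1192). Relative to all genes, the median stood 0.04 lower on the log2 scale as deposited and under median ratios, and 0.09 lower under quantile normalization. The members together took 1.70% to 1.81% of all FPKM in normal samples and 1.45% to 1.60% in PBOO samples.

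**Figure D1:**
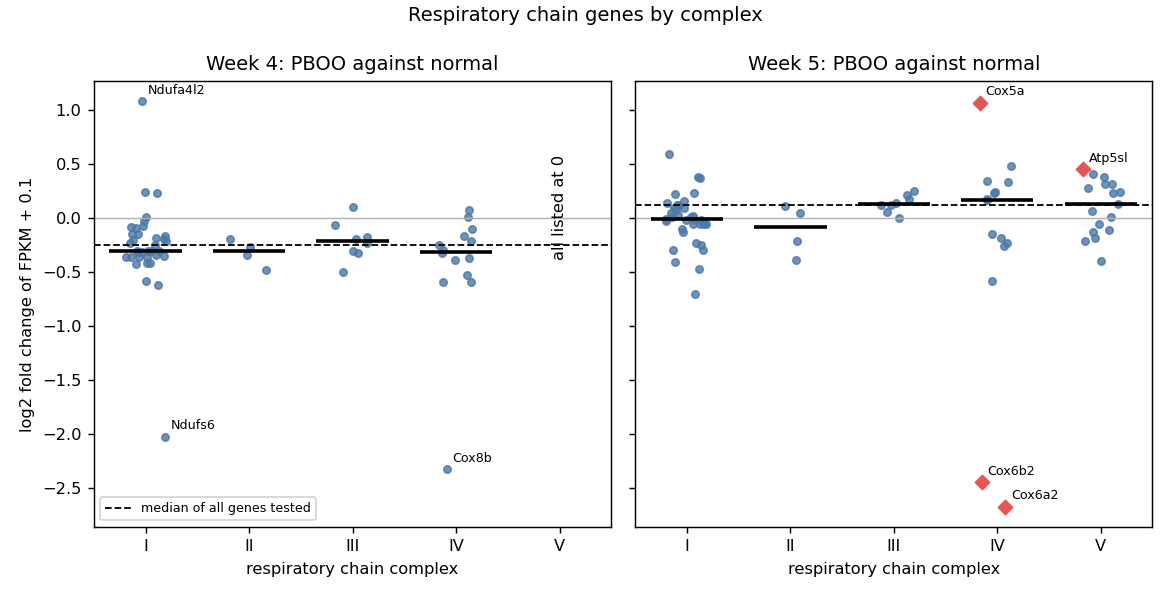
Log2 fold change of each respiratory chain gene (points) between PBOO and normal bladder tissues at week 4 (left) and week 5 (right), by complex, with the median of each complex (bars) and of all genes tested (dashed line). Red diamonds passed an adjusted p of 0.05, and the medians of complexes I to IV at week 4 lie between -0.31 and -0.22, near that of all genes (-0.25) in the values as deposited.

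No complex had a called member at week 4, and differences between complexes were not tested. Medians were -0.30 for complex I, -0.31 for complex II, -0.22 for complex III and -0.31 for complex IV on the log2 scale, and after median-ratio scaling they lay between -0.06 and 0.03. All 4 subunits of succinate dehydrogenase were lower in every PBOO sample than in any normal sample in the values as deposited, and after median-ratio scaling 3 had a fold change below 0 and 1 above it. Sdha, the flavoprotein that holds the catalytic site, read 129, 128 and 130 FPKM in normal and 109, 97.5 and 74.2 FPKM in PBOO samples (log2 fold change -0.48, SE 0.15, adjusted p = 0.0967). Sdhb, the iron-sulfur subunit, had the smallest difference of the 4, with 125 to 141 FPKM in normal and 112 to 122 FPKM in PBOO samples.

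In complex I, the largest separated difference was that of Ndufs6, an accessory subunit at the edge of detection here, with 1.85, 2.63 and 2.63 FPKM in normal and 1.5, 0 and 1.25 FPKM in PBOO samples. Ndufb10, a membrane arm subunit, read 185, 166 and 177 FPKM in normal and 146, 118 and 87.4 FPKM in PBOO samples (log2 fold change -0.62, SE 0.19, adjusted p = 0.0904). Ndufs7, which carries an iron-sulfur cluster near the ubiquinone site, read 110, 94.7 and 96.8 FPKM against 78.2, 66.2 and 58.0 FPKM (adjusted p = 0.0664). The core subunit Ndufs1 differed by -0.17. Ndufv1, which binds NADH, differed by -0.30 with overlapping groups. In the other direction, Ndufb9 and Ndufv2 read 0.24 and 0.23 higher with overlapping groups, the largest upward differences among members with a mean over 10 FPKM.

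In complex III, Uqcrc2, a core protein of the matrix side, had the largest difference, from 133, 144 and 146 FPKM to 107, 98.8 and 92.4 FPKM (log2 fold change -0.50, SE 0.10, adjusted p = 0.0551). Its partner Uqcrc1 differed by -0.20 and the Rieske iron-sulfur protein Uqcrfs1 by -0.24. Uqcrq, a small subunit, stood at 0.11 with overlapping groups.

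In complex IV, Cox7a2l had the lowest adjusted p of all members. This protein, also called SCAF1, joins complexes III and IV into supercomplexes. It read 171, 192 and 192 FPKM in normal and 137, 118 and 113 FPKM in PBOO samples (log2 fold change -0.60, SE 0.11, adjusted p = 0.0538). Cox6c fell short of the threshold in the same way, from 607, 653 and 756 FPKM to 446, 483 and 409 FPKM (log2 fold change -0.59, adjusted p = 0.0628), and so did Cox4i1, from 773, 747 and 737 FPKM to 550, 549 and 467 FPKM (log2 fold change -0.53, adjusted p = 0.0622). Under median-ratio scaling their adjusted p rose, and the smallest of any member was 0.125. Without PBOO week 4 replicate 1, 11 members passed the threshold, all lower, with 1658 genes of the table lower and 468 higher: Cox4i1, Cox5a, Cox6c, Cox7a2l, Ndufa10, Ndufb7, Ndufb10, Ndufs7, Ndufv3, Sdha and Uqcrc2. Without any other single week 4 sample the count stayed at 0.

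Few respiratory chain genes passed the threshold at week 5. Of the 80 tested, 4 passed the adjusted threshold (5.00%), against 29.9% of the 13685 genes tested. Cox5a and Atp5sl rose (15.5% of all genes rose) and Cox6a2 and Cox6b2 fell (14.5% fell). The median log2 fold change was 0.04 over the 80 genes and 0.12 over all genes, and under median-ratio scaling it was -0.07 and 0.02. PBOO samples lay above all normal samples in 9 genes and below them in 9, where 35.3% and 25.0% of all genes did. At an unadjusted p under 0.05, 4 were higher and 5 lower, with 24.6% and 18.8% of all genes as the background. Complex medians were -0.01 for complex I, -0.08 for II, 0.13 for III, 0.17 for IV and 0.13 for V, and -0.11, -0.18, 0.02, 0.07 and 0.02 after median-ratio scaling.

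Cox5a, a subunit on the matrix side of complex IV that is present in all tissues, rose at week 5. It read 120, 115 and 113 FPKM in normal and 207 and 286 FPKM in PBOO samples. Both PBOO samples lay far above the normal ones, which spanned under 7 FPKM. The change was 2.10-fold (log2 fold change 1.07, SE 0.17, adjusted p = 0.00757). Cox5a passed the threshold under each of the 10 alternatives of processing, with an adjusted p between 0.00105 and 0.0370. It also passed without any 1 of the 5 samples, with an adjusted p between 0.00276 and 0.0411, but without either PBOO sample that group is 1 sample, assumed to vary like the normal ones. At week 4 it had read 270, 233 and 250 FPKM in normal and 231, 188 and 166 FPKM in PBOO samples. Its partner subunit Cox5b overlapped between groups at week 5, with 206, 173 and 227 FPKM in normal and 190 and 339 FPKM in PBOO samples.

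**Figure D2:**
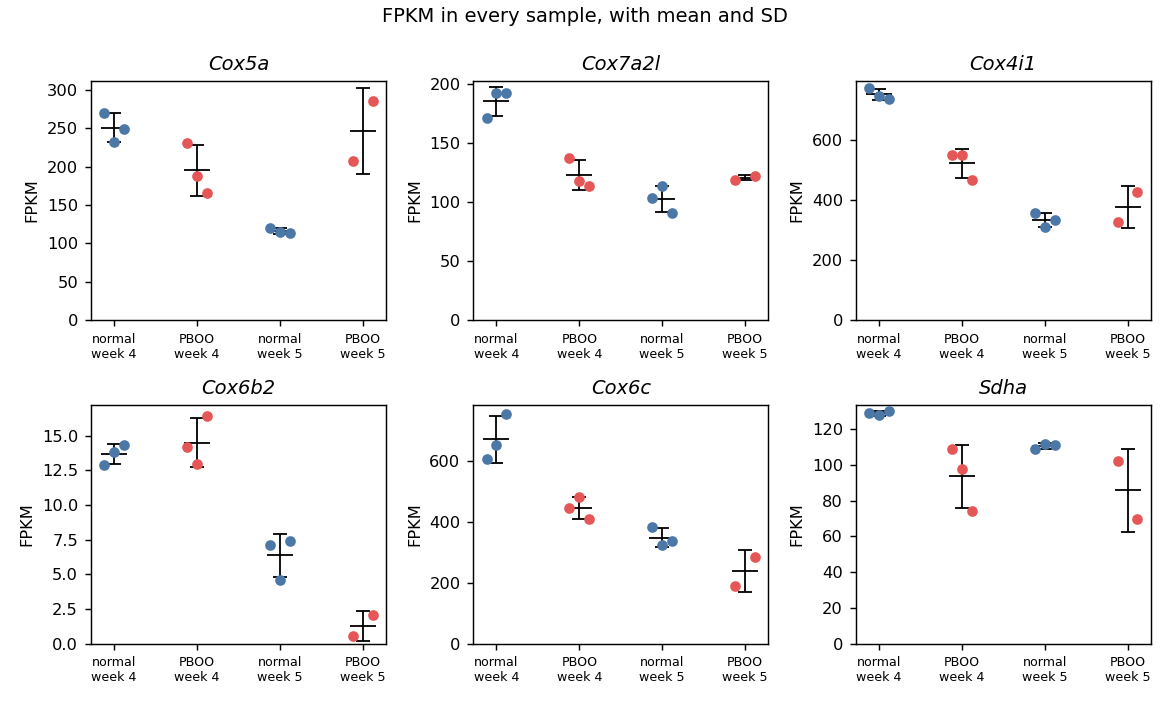
FPKM of 6 respiratory chain genes in each sample (points, normal in blue and PBOO in red) with the group mean and SD (bars), all axes starting at 0. Cox5a was 113 to 120 FPKM in normal and 207 and 286 FPKM in PBOO samples of week 5, while Cox7a2l and Cox4i1 lay below normal in the 3 PBOO samples of week 4, without passing the threshold.

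Atp5sl also rose, from 17.4, 17.3 and 15.8 FPKM to 21.8 and 24.3 FPKM (log2 fold change 0.45, SE 0.12, adjusted p = 0.0407). The protein, now called DMAC2, acts in the assembly of complex I and is not an ATP synthase subunit. The call was lost under all 3 scalings, without the trend, under the replicate block, and without any 1 sample except PBOO replicate 1, with adjusted p up to 0.227. Among true complex V genes, the samples of PBOO lay above those of normal bladder in Atp5d (delta subunit, 77.6 to 86.4 FPKM against 94.0 and 105 FPKM), Atp5g2 (227 to 268 FPKM against 296 and 351 FPKM, adjusted p = 0.105) and Atp5g3 (177 to 195 FPKM against 196 and 243 FPKM). The last 2 encode identical mature copies of the c-ring subunit, as does Atp5g1 (72.8 to 76.4 FPKM against 75.2 and 131 FPKM, groups overlapping). Atp5b lay below, with 639 and 658 FPKM in PBOO samples. Atpif1, which encodes the inhibitor of ATP synthase and is not a member by name, read 135, 113 and 132 FPKM in normal and 156 and 204 FPKM in PBOO samples of week 5.

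The 2 genes that fell encode tissue-specific isoforms of complex IV. Cox6b2, best known from testis, read 7.14, 4.59 and 7.42 FPKM in normal and 0.526 and 2.06 FPKM in PBOO week 5 samples (log2 fold change -2.45, SE 0.55, adjusted p = 0.0240). It passed the threshold under each of the 10 alternatives and lost it without any 1 of the 3 normal samples (adjusted p up to 0.0867). Cox6a2, the heart and skeletal muscle isoform of subunit VIa, read 1.04, 1.54 and 0.489 FPKM in normal and 0 and 0.162 FPKM in PBOO samples (log2 fold change -2.67, SE 0.70, adjusted p = 0.0372). Its size depended on the pseudocount, from -0.87 with 1 to -4.49 with 0.01, and it was not called with either. Nor was it called under the replicate block, in a single fit over all samples, or without normal replicate 1 or 3. The filter at a mean of 1 FPKM dropped Cox6a2, and without normal replicate 2 it was not tested. The ubiquitous isoform Cox6a1 read 205, 227 and 220 FPKM against 225 and 334 FPKM, with an overlap.

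Several members lay lower in both PBOO week 5 samples without passing the threshold. Ndufs4, an accessory subunit of complex I, read 34.1, 39.2 and 36.0 FPKM in normal and 17.7 and 28.1 FPKM in PBOO samples (log2 fold change -0.70, SE 0.21, adjusted p = 0.0580), and it was called lower under each of the 3 scalings. Cox6c read 385, 325 and 337 FPKM against 189 and 287 FPKM (adjusted p = 0.0915), and was called lower under 2 of them. Ndufa4, first assigned to complex I and now regarded as a complex IV subunit, read 127 to 155 FPKM against 80.7 and 122 FPKM. In complex II, Sdha read 109, 112 and 111 FPKM against 102 and 69.5 FPKM and Sdhd 83.6 to 95.2 FPKM against 83.5 and 73.1 FPKM, while Sdhb and Sdhc overlapped. In the other direction Ndufc1, a small complex I subunit, read 26.2, 36.3 and 27.0 FPKM against 39.4 and 50.2 FPKM (log2 fold change 0.59, adjusted p = 0.0724).

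The 2 PBOO samples of week 5 stood apart from each other. Replicate 2 was above replicate 1 in 72 of the 80 genes, with a median log2 ratio of 0.46, and over all genes tested in 53.3%, with a median ratio of 0.04. Between the normal samples of week 5, taken in pairs, the median ratio of the members lay between -0.10 and 0.05. Normal replicate 2 was above normal replicate 1 in 20 of 80 members (53.9% of all genes). Normal replicate 3 was above replicate 1 in 28 of 80 (42.5% of all genes) and above replicate 2 in 48 of 80 (41.7%). A shift to one side was also seen between normal samples of week 4, at a smaller size. There replicate 3 was above replicate 2 in 60 of 61 genes (50.6% of all genes), with a median log2 ratio of 0.10. It was above replicate 1 in 53 of 61 (50.6% of all genes), with a median of 0.17. In many genes replicate 1 lay below and replicate 2 above all normal samples: Uqcr11, a small complex III subunit, read 77.8 and 121 FPKM with normal samples at 83.4 to 88.0 FPKM, and Atp5l, of the membrane part of ATP synthase, read 133 and 279 FPKM with normal samples at 173 to 184 FPKM. The genes in which replicate 2 was lower were Ndufa10l1, Atp5s, Sdha, Ndufs1, Sdhd, Atp5a1, Ndufs7 and Uqcrc2. Without replicate 1, 27 members passed the threshold (23 higher, 4 lower), as did 3174 genes higher and 2619 lower of all 13765 tested. Without replicate 2, 13 members did (1 higher, 12 lower), and of 13477 genes tested 2013 were called higher and 2119 lower. In each of these fits the PBOO group is 1 sample, assumed to vary like the normal samples, so the counts describe that sample. Cox5a was the 1 member called higher and Cox6b2 the 1 called lower in both. Markers of other cells differed between the replicates as well. Leukocyte markers summed to 171 FPKM in replicate 1 and 589 FPKM in replicate 2, and urothelium markers to 6002 and 6826 FPKM. Members of both lists went either way: the neutrophil gene S100a9 read 8.87 and 287 FPKM and the macrophage gene Cd68 73.4 and 63.1 FPKM, and the basal keratin Krt5 read 780 and 2859 FPKM and the uroplakin Upk1a 1005 and 493 FPKM. These genes were chosen after their values were seen, and the part of these cells in the result was not tested.

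**Figure D3:**
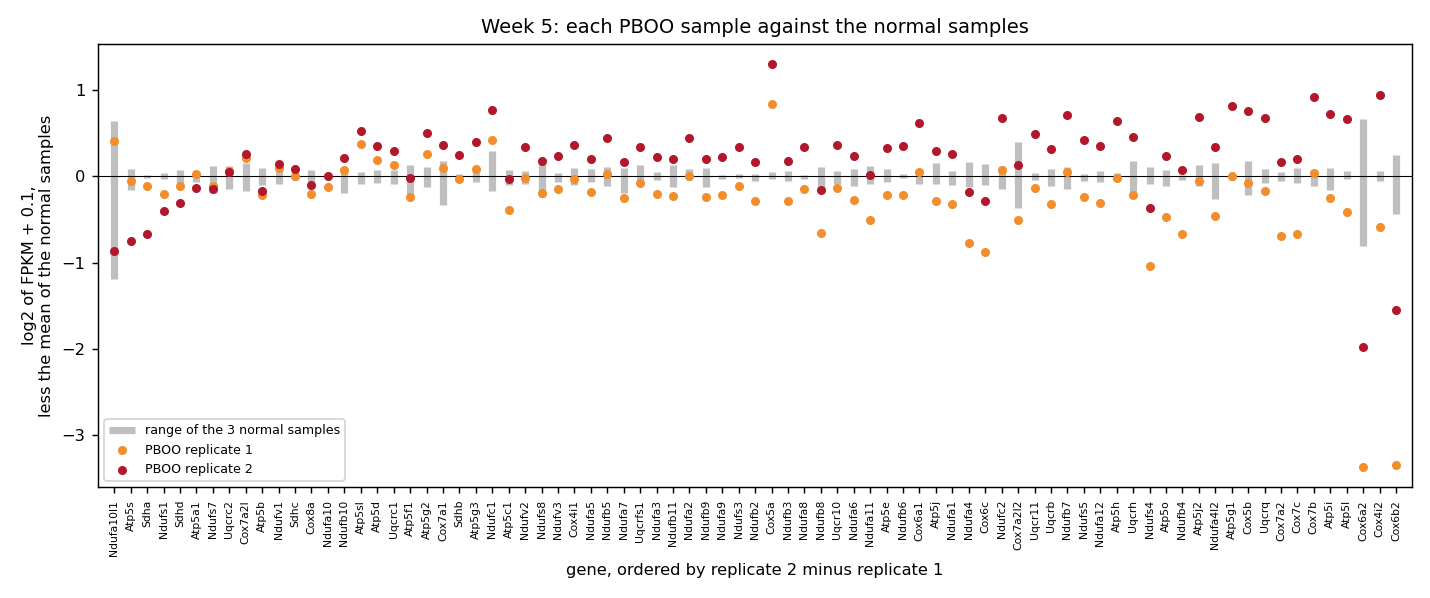
Log2 of FPKM + 0.1 of each respiratory chain gene in PBOO week 5 replicate 1 (orange) and replicate 2 (dark red), less the mean of the 3 normal week 5 samples, whose range is in grey. Genes run from those lower in replicate 2 (left, 8 genes) to those higher in it, with 1 gene of the 80 not drawn, and both replicates of Cox5a lie above the normal range.

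The isoform pairs of complex IV followed different samples. Cox8b, the striated muscle isoform of subunit VIII, read 0.114, 4.12 and 4.25 FPKM in normal week 4 samples and 0, 0 and 3.03 FPKM in PBOO week 4 samples, and was listed at 0 in all 5 week 5 samples. Cox6a2 read 3.64, 10.95 and 13.0 FPKM and 1.76, 5.12 and 30.2 FPKM in the same week 4 samples. The oxygen store myoglobin (Mb), a striated muscle gene, read 0.814, 19.2 and 37.7 FPKM and 0.175, 0 and 14.2 FPKM, and the fast myosin Myh2 0.630, 3.51 and 6.71 FPKM and 0.920, 2.41 and 15.7 FPKM. Normal replicates 2 and 3 and PBOO replicate 3 had the 3 highest values in each of the 4 genes. Mb and Myh2 were named after their values were seen, and the whole list of 10 striated muscle markers put the samples in another order. Its sum was 192, 282 and 325 FPKM in normal and 375, 982 and 3051 FPKM in PBOO week 4 samples, led by Acta1. Log2 fold changes of the 10 markers ran from -3.58 to 2.88, and no marker was called. The part of striated muscle in the values of Cox8b and Cox6a2 was not tested.

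**Figure D4:**
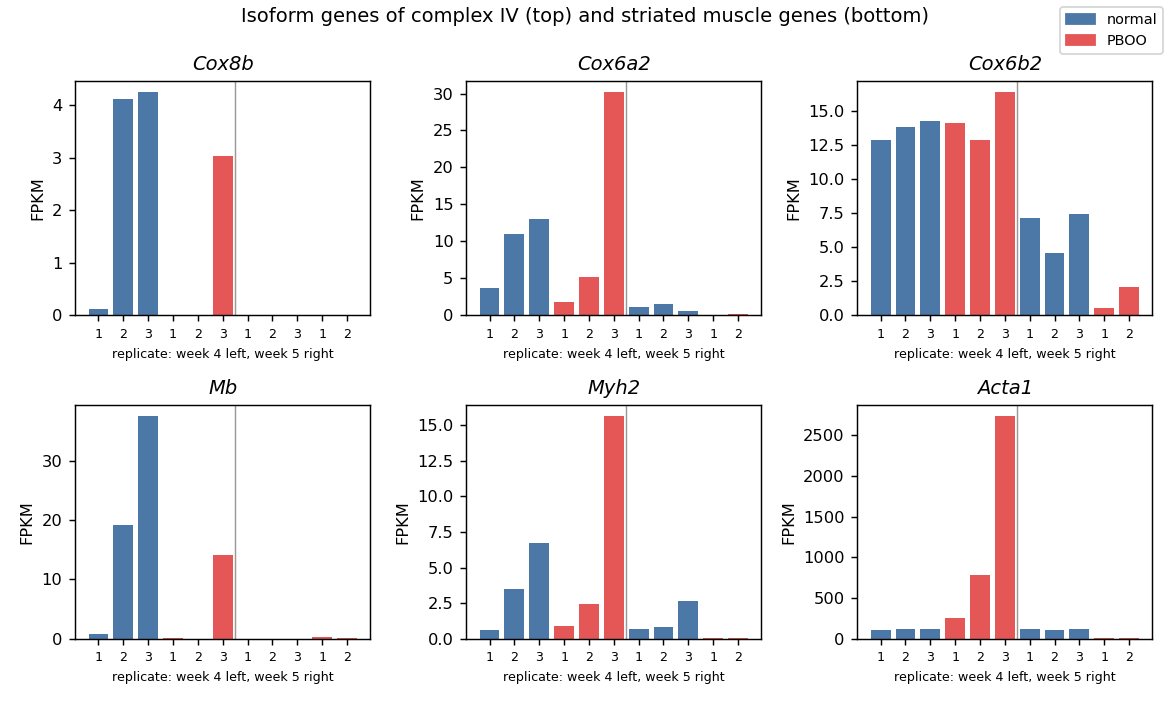
FPKM of 3 isoform genes of complex IV (top) and 3 striated muscle genes (bottom) in each sample, normal in blue and PBOO in red, week 4 left of the grey line and week 5 right of it. Cox8b and Mb were over 1 FPKM in the same 3 week 4 samples, and Cox6b2 fell from 4.59 to 7.42 FPKM in normal to 0.526 and 2.06 FPKM in PBOO samples of week 5.

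The ubiquitous isoforms were much more abundant and did not pass the threshold in either week. Cox8a read 540 to 589 FPKM in normal and 357 to 468 FPKM in PBOO week 4 samples. Cox7a2 read 218 to 260 FPKM and 188 to 212 FPKM in these samples, and Cox7a1, the muscle form, was between 0.551 and 0.953 FPKM in all week 5 samples. The hypoxia-linked isoform Cox4i2 read 11.9 to 16.7 FPKM in normal and 9.80 to 12.7 FPKM in PBOO week 4 samples, and 3.13 to 3.42 FPKM against 2.13 and 6.34 FPKM at week 5. Ndufa4l2, a hypoxia-inducible relative of Ndufa4, read 2.91, 3.24 and 4.74 FPKM in normal and 3.15, 6.46 and 21.5 FPKM in PBOO week 4 samples. This was the largest log2 fold change upward of that week (1.08, SE 0.64, adjusted p = 0.263), with overlapping groups and mostly from PBOO replicate 3.

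The difference between PBOO and normal tissues was then compared between the weeks, over the 60 members measured in both. The test is the week 5 fold change less the week 4 one, over all 11 samples. Of the 60 genes, 7 passed (6 higher and 1 lower at week 5), with 26.5% and 13.5% of the 11296 genes tested, 40.0% in all, as the background. At an unadjusted p under 0.05, 17 were higher and 1 lower, with 34.6% and 15.7% of all genes. Cox5a differed most surely, by 1.44 (SE 0.23, adjusted p = 0.00103), from -0.37 at week 4 to 1.07 at week 5. Cox7a2l differed by 0.83 (SE 0.17, adjusted p = 0.00452), from -0.60 to 0.24. Cox6b2 differed by -2.52 (SE 0.56, adjusted p = 0.00627), from 0.08 to -2.45. The other 4 were Cox4i1, Ndufb7, Ndufb10 and Uqcrc2, which were not called after median-ratio scaling, where Cox5a, Cox7a2l, Cox6b2 and Ndufs1 were. The median of the 60 genes was 0.29 (all genes 0.35) as deposited and 0.01 (all genes 0.07) after that scaling.

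Other genes of mitochondrial metabolism gave a background for these values. At week 4 a single gene of the 8 lists passed, Acaa2, a thiolase of fatty acid oxidation, which fell from 79.4, 89.4 and 80.0 FPKM to 35.7, 42.8 and 26.5 FPKM (log2 fold change -1.27, adjusted p = 0.0483). No gene of the table passed at week 4 after median-ratio scaling (smallest adjusted p 0.0530). Scaled to the sum without the highest genes, 140 genes of the table were called higher and 16 lower, and under quantile normalization 99 and 21. List medians at week 4 lay between -0.39 and -0.19, with all genes at -0.25. Of the regulators of mitochondrial biogenesis, none passed at week 4 and 3 of 17 rose at week 5, where 15.5% of all genes rose. Among the 3 were Esrra (ERR alpha), from 35.4 to 38.7 FPKM in normal to 59.8 and 49.0 FPKM in PBOO samples (log2 fold change 0.54, adjusted p = 0.0299), and the mitochondrial DNA polymerase genes Polg (0.84) and Polg2 (0.76). Nrf1 (log2 fold change 0.36), Gabpa (-0.24) and Tfam (0.20) did not pass, and the coactivator Ppargc1a was under 0.5 FPKM in all week 5 samples. Of the assembly factors 5 of 44 rose at week 5 and none fell, both below the shares of all genes (15.5% rose and 14.5% fell). Lyrm7, a complex III factor, stood at 1.12 and Coa3, a complex IV factor, at 0.94. Neither of the cytochrome genes, Cycs and Cyc1, passed in either week.

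**Figure D5:**
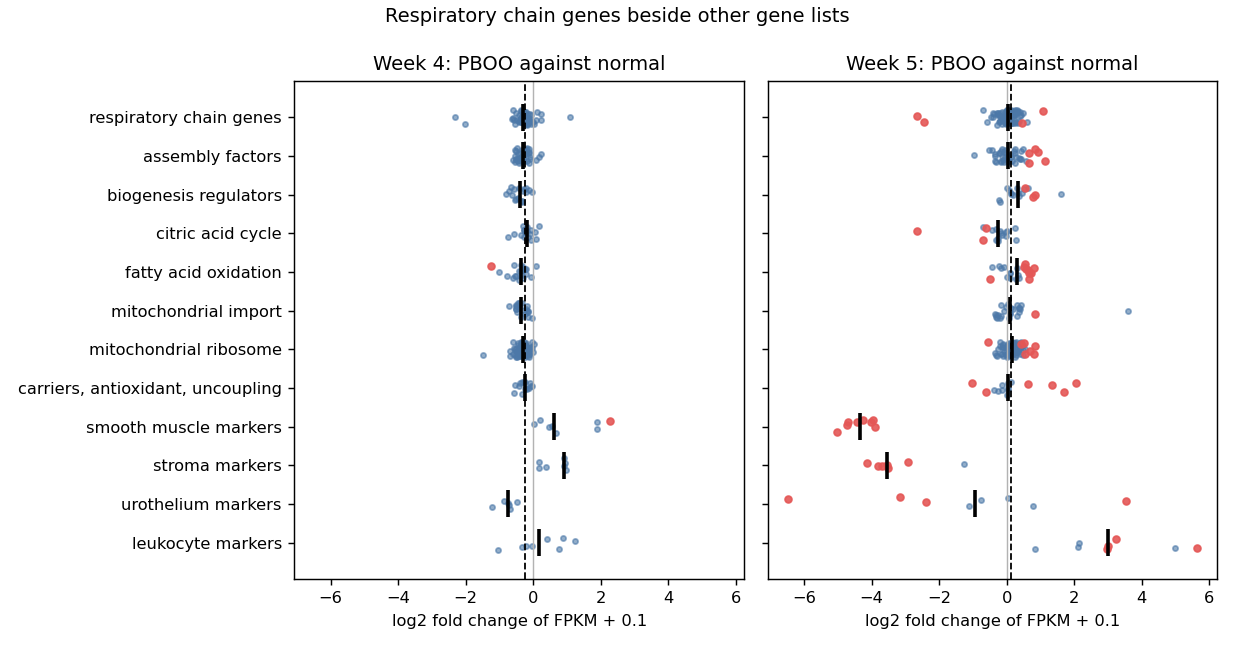
Log2 fold change of each gene (points) of the respiratory chain and of other gene lists at week 4 (left) and week 5 (right), with list medians (bars) and the median of all genes tested (dashed line). Red points passed an adjusted p of 0.05. The respiratory chain medians were -0.29 and 0.04, and that of the smooth muscle markers was 0.61 at week 4 and -4.34 at week 5.

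In the enzymes that supply the chain, the week 5 changes went in both directions. Of 17 citric acid cycle genes 3 fell and 0 rose, among them the mitochondrial isocitrate dehydrogenase Idh2 (176 to 217 FPKM against 22.4 and 39.5 FPKM, log2 fold change -2.66, adjusted p = 0.00187) and the pyruvate dehydrogenase subunit Pdha1 (-0.71). Of 21 fatty acid oxidation genes 8 rose, with the dehydrogenase Acads at 0.81 and the carnitine transferase Cpt2 at 0.71, and 1 fell, the thiolase Acat1 at -0.51. With 15.5% of all genes risen and 14.5% fallen, these shares are read against a large background.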

How the data were processed

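RNA of bladder tissues was sequenced from 3 PBOO and 3 normal samples at week 4 and from 2 and 3 at week 5, with groups from the sample labels. Per the methods, the authors made TruSeq libraries, trimmed reads with SeqPrep and Sickle, mapped them with HISAT2, assembled transcripts with StringTie and used featureCounts, and the deposited table gives FPKM per gene symbol. The submitters' processing notes list bcl2fastq 2.0, DESeq2, limma and the mouse build mm10, while the table holds 2367 symbols of the rat kind (RGD, LOC or RT1) and 0 of the mouse kind (H2-). The strand of counting is not given in the sources used here. No further scaling was applied. The table holds no counts and low values did not fall on whole reads (9.96% to 13.3% within 0.5%, and 7.68% to 11.4% after shuffling), so depth is unknown and no counting error is given.

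Each week was fitted separately with limma 3.58.1 in R 4.3.3 (eBayes with a trend) on log2(FPKM + 0.1) after genes averaging under 0.5 FPKM were dropped, which kept 11320 genes at week 4, 13685 at week 5 and 11296 for the difference between weeks. The study's count-based test needs counts and was not run. Steps were tested on simulated data. Alternatives were the pseudocount (1 and 0.01), the filter (none, or a mean of 1 FPKM), 3 scalings, no trend, a replicate block, a single fit, other thresholds and leaving out each sample.

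Members and lists were chosen with earlier results of these data known. Named members are isoform sets, core subunits, the largest and smallest fold change per complex and week, up to 5 per direction with groups that do not overlap, and the 5 with the lowest p between weeks. Members called in any fit, those that stand apart between replicates, and markers beside them were named after their values were seen. Of the other lists, up to 2 per direction are named. Single results for some genes are not reported here. Symbols were matched to RefSeq (GRCr8), with all 82 members matched. Other software was Python 3.11.15 with pandas 2.3.3, matplotlib 3.10.9 and numpy 2.4.6.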

Additional observations from a re-analysis of the deposited data

Results flagged for a closer look

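The effect of PBOO differed between week 4 and week 5 in 7 of the 60 respiratory chain genes tested, against 40.0% of all 11296 genes, by the interaction test over all 11 samples (limma, adjusted p under 0.05). Each week had its own normal samples, and week and cohort cannot be told apart. The week 5 log2 fold change was above that of week 4 by 1.44 in Cox5a (SE 0.23, adjusted p = 0.00103), by 0.83 in Cox7a2l (SE 0.17, adjusted p = 0.00452), by 0.76 in Ndufb10 (SE 0.25, adjusted p = 0.0374), by 0.73 in Ndufb7 (SE 0.23, adjusted p = 0.0275), by 0.70 in Cox4i1 (SE 0.20, adjusted p = 0.0173) and by 0.55 in Uqcrc2 (SE 0.15, adjusted p = 0.0165). In Cox6b2 the difference was -2.52 (SE 0.56, adjusted p = 0.00627). Cox5a, Cox7a2l and Cox6b2 passed under each of the 3 scalings and without any 1 of the 11 samples. The other 4 did not: Uqcrc2 (down to 0.18, adjusted p up to 0.353), Cox4i1 (0.33, up to 0.211), Ndufb7 (0.36, up to 0.217) and Ndufb10 (0.39, up to 0.257) lost the call under each of the 3 scalings and with the replicate block. With 1 sample left out at a time and no change of scaling, Uqcrc2 kept its call. Cox4i1 lost it without PBOO week 5 replicate 2 (adjusted p = 0.0506). Ndufb7 lost it without PBOO week 4 replicate 3, PBOO week 5 replicate 2, normal week 4 replicates 2 and 3, or normal week 5 replicate 2 (adjusted p up to 0.0741). Ndufb10 kept it only without PBOO week 4 replicate 1 or 3, with an adjusted p of up to 0.0995 without any of the others.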

How the results depend on the processing

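At week 4, 0 members passed with all samples under every change of pseudocount, filter, trend and scaling. In a single fit over all 11 samples 5 of 61 passed, all lower, with 759 of all 11320 genes lower and 217 higher. At an unadjusted p 29 did, all lower, with 26.2% of all genes lower and 5.76% higher. Leaving out 1 sample gave 0 to 11 (11, all lower, without PBOO replicate 1, where 1658 of all genes were lower and 468 higher). At week 5, where 4 passed, a single fit gave 8 (all genes 3051 higher, 2510 lower). An unadjusted p gave 9 (24.6% of all genes higher, 18.8% lower), and an unadjusted p with a 4-fold change 2. Leaving out 1 sample gave 1 to 27: 27 without PBOO replicate 1 (all genes 3174 higher, 2619 lower), 13 without PBOO replicate 2 (2013 higher, 2119 lower) and 1, Cox5a, without any normal sample. Only Atp5l changed the sign of a call, to -0.41 (adjusted p = 0.0406) without PBOO week 5 replicate 2, against 0.66 (adjusted p = 0.0112) without replicate 1. In both fits the PBOO group is 1 sample and only the normal samples give the spread, and neither sign was called with all samples. Between weeks, where 7 passed, median-ratio scaling gave 4 (all genes 1811 higher, 1952 lower) and quantile normalization 3 (1853 higher, 1732 lower). Leaving out 1 sample gave 5 to 30: 30 without PBOO week 5 replicate 1 and 12 without PBOO week 4 replicate 1 (all genes 3469 higher, 1530 lower). Without PBOO week 5 replicate 1 that PBOO group is 1 sample, so the 30 describes that sample. The median difference there was 0.47 over the members and 0.36 over all genes. Over the 3 counts, 40 alternatives stayed within 1.5 times the reported count and 17 did not.

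The correlations of deviations between same-numbered samples were 0.15, -0.02 and 0.23 at week 4. Those between samples of different numbers ran from -0.21 to 0.09. At week 5 the same-numbered correlations were -0.0008 and 0.12. The deviations of 2 PBOO samples mirror each other there, so the week 5 values cannot decide. The labels state no pairing and the numbers were not taken as one, but these values do not settle the question at week 4. The replicate block gave 0 calls at week 4 (all genes 42 higher, 21 lower) and 2 at week 5 (1141 higher, 1452 lower). Between weeks it gave 4 (2295 higher, 1369 lower). Depth is unknown, and 2 PBOO samples limit week 5.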

Other observations

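Of 15 genes for antioxidant, carrier and uncoupling proteins tested at week 5, 4 rose and 2 fell, where 15.5% of all genes tested rose and 14.5% fell. Ucp2, an uncoupling protein of many tissues, read 210, 220 and 231 FPKM in normal and 664 and 774 FPKM in PBOO samples (log2 fold change 1.70, adjusted p = 0.00103, limma). Ucp3 (2.06), the manganese superoxide dismutase Sod2 (1.35) and the ADP/ATP carrier Slc25a5 (0.63) rose as well. Slc25a4, the ADP/ATP carrier of heart and muscle, fell from 162 to 189 FPKM in normal to 64.0 and 112 FPKM in PBOO samples (log2 fold change -1.04, adjusted p = 0.0291), and the peroxiredoxin Prdx3 fell by 0.62 on the log2 scale.

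Of 74 mitochondrial ribosomal protein genes tested at week 5, 6 rose and 1, Mrpl51, fell (-0.55), both below those shares of all genes. The largest rises were those of Mrps33 (0.85) and Mrps6 (0.81). Of 25 import genes 1 rose, Timm13 (0.84), a chaperone of the intermembrane space, and none fell, again below the shares of all genes. At week 4 none of these genes passed, with list medians of -0.26, -0.31 and -0.37 for the carrier and antioxidant, ribosomal and import lists.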
